A study of Homo sapiens with 8 samples.

Results

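The CDKN2A-CDKN2B locus on the short arm of chromosome 9 and its related inhibitors of cyclin-dependent kinases were followed in RNA-Seq libraries of BEAS-2B, an immortalised human bronchial epithelial line. By gene symbol, 8 of the 25411 genes listed in each library were taken: the locus genes CDKN2A, CDKN2B, CDKN2B-AS1 and MTAP, the INK4 genes CDKN2C and CDKN2D, and the CIP/KIP genes CDKN1B and CDKN1C. There were 8 libraries in 4 groups of 2. Untreated cells (UT) were the control. Ni-E cells were exposed to 100 µM NiCl2 over 6 weeks. Ni-W cells, washed out of nickel after such an exposure, were a clonal population grown from an isolated colony and cultured for more than 6 months without the metal, so that Ni-W stands for 1 clone. A further group, HCl3, carried the same treatment text, and how long it had been free of nickel and how it relates to Ni-W were not given. Experiment 2 was given as the label of both Ni-E libraries and experiments 3 and 4 as those of the HCl3 libraries, while UT and Ni-W had none, so experiment and group cannot be told apart. The study asked which expression changes occur during nickel exposure and which are present after nickel has been removed.

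Cells enter S phase once the cyclin D kinases CDK4 and CDK6, and then cyclin E with CDK2, have phosphorylated the retinoblastoma protein and released E2F factors. INK4 proteins (p16 from CDKN2A, p15 from CDKN2B, p18 from CDKN2C and p19 from CDKN2D) bind CDK4 and CDK6, whereas the CIP/KIP proteins (p21 from CDKN1A, p27 from CDKN1B and p57 from CDKN1C) act on a wider range of cyclin complexes. CDKN2A also encodes ARF, an inhibitor of MDM2, from another start site and reading frame. CDKN2B-AS1 (ANRIL) is a long noncoding RNA of the locus that is known for its link to Polycomb repression of the INK4 genes, and MTAP is the methylthioadenosine phosphorylase of methionine salvage, often deleted together with CDKN2A in tumours. The locus is a classic site of silencing and deletion in lung cancer. These are general accounts, and whether the retinoblastoma and p53 pathways are intact in BEAS-2B was not tested here.

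In hg19, the build of the files, MTAP (chromosome 9, 21802635 to 21865969, plus strand) ends 101.8 kb before CDKN2A (21967751 to 21994490, minus strand). CDKN2B-AS1 (21994790 to 22121093, plus strand) starts 0.3 kb past the end of CDKN2A, and CDKN2B (22002902 to 22009312, minus strand) lies wholly within it, over 6411 bases. A value covers all exons of a gene, so reads of p16 and ARF were not separated. The overlap is one of gene spans, introns included, and whether exons of CDKN2B and its antisense partner overlap was not examined. It was not stated whether counting used the strand, so how any reads shared by them were assigned is not known. CDKN2B-AS1 had 24 to 85 reads a library, against 816 to 3157 for CDKN2B. Promoters of the locus genes are shown because MTAP, CDKN2A and CDKN2B were lower together in Ni-W. Each is the 250 bases before a RefSeq start site (GRCh38.p14), with GC boxes (GGGCGG on either strand) in capitals. They are MTAP at chr9:21802386-21802635 on the plus strand, CDKN2A at chr9:21974858-21975107 on the minus strand (the p16 start), CDKN2B-AS1 at chr9:21994541-21994790 on the plus strand and CDKN2B at chr9:22009306-22009555 on the minus strand.
MTAP: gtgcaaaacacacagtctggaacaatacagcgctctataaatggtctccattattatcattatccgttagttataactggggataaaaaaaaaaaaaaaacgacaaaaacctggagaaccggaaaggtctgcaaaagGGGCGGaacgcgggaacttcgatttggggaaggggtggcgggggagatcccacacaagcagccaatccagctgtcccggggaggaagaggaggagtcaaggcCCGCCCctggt
CDKN2A: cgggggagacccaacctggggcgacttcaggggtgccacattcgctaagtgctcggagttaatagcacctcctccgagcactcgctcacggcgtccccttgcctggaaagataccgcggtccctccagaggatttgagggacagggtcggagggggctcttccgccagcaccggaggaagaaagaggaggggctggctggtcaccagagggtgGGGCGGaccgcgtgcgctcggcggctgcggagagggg
CDKN2B-AS1: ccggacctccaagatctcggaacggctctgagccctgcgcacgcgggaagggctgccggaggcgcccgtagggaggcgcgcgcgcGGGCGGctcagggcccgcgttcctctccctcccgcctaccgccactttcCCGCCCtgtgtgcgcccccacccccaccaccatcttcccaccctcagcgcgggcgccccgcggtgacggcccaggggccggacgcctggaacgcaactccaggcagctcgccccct
CDKN2B: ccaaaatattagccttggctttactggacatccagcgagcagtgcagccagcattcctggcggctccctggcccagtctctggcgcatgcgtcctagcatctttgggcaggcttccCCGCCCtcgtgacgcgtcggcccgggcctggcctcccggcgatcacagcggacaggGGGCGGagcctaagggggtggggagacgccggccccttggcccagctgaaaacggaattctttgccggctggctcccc

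The 3 promoters on the CDKN2A side of the locus were rich in GC, with 66.8% for CDKN2A, 75.6% for CDKN2B-AS1 and 66.4% for CDKN2B, against 50% for MTAP and a median of 58% over 35116 promoters of the same length. They held 20, 31 and 18 CpG dinucleotides, and MTAP held 11, the same as the median over all promoters. GC boxes numbered 2 in MTAP, CDKN2B-AS1 and CDKN2B and 1 in CDKN2A, and 42.6% of all promoters held at least 1. The window before the ARF start of CDKN2A (chr9:21995325-21995574, minus strand, not printed) had 66.8% GC, 24 CpG dinucleotides, 0 GC boxes and 1 SMAD box. In GRCh38.p14 this start lies past that of CDKN2B-AS1, whereas the counted CDKN2A of hg19 ends before CDKN2B-AS1 starts. The gene models of the builds thus differ here, and this window is not the one next to the counted gene. MTAP alone of the 4 printed windows held a TATA box (TATAAA or its reverse complement, in 10.7% of promoters), a CCAAT box (32%) and SMAD boxes (CAGAC, 2 matches, in 38% of promoters). CDKN2B-AS1 held 1 match of the E2F motif TTTCCCGC, which overlaps a GC box, and 1.39% of promoters held this motif on either strand. The E2F motifs TTTGGCGC (0.55% of promoters) and TTTCGCGC (0.439%) and the hypoxia response core ACGTG (18.5%) had no match in these 4 windows or that of ARF. In all, 7 of the 8 genes matched a RefSeq promoter at 10 start sites, and CDKN1C was not among them. A match of letters is a description and not a bound site.

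CDKN2A was by far the most expressed of the 8 genes per length in each group, and CDKN2B-AS1 and CDKN1C were the lowest. In RPKM, reads scaled to transcript length and to how many reads were mapped, the UT order was CDKN2A at 161, CDKN2C at 33.3, CDKN1B at 26.8, CDKN2B at 19.8, MTAP at 18.6, CDKN2D at 13.9, CDKN2B-AS1 at 0.785 and CDKN1C at 0.26. The UT libraries of neighbours in this order did not overlap, except those of CDKN2B and MTAP. CDKN2B moved from place 4 among UT levels to place 6, below MTAP and CDKN2D, in Ni-E, Ni-W and HCl3. In Ni-E the libraries of CDKN2C and CDKN1B overlapped, as did those of MTAP and CDKN2D. CDKN2B-AS1 and CDKN1C overlapped in all 3 nickel groups.

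**Figure D1:**
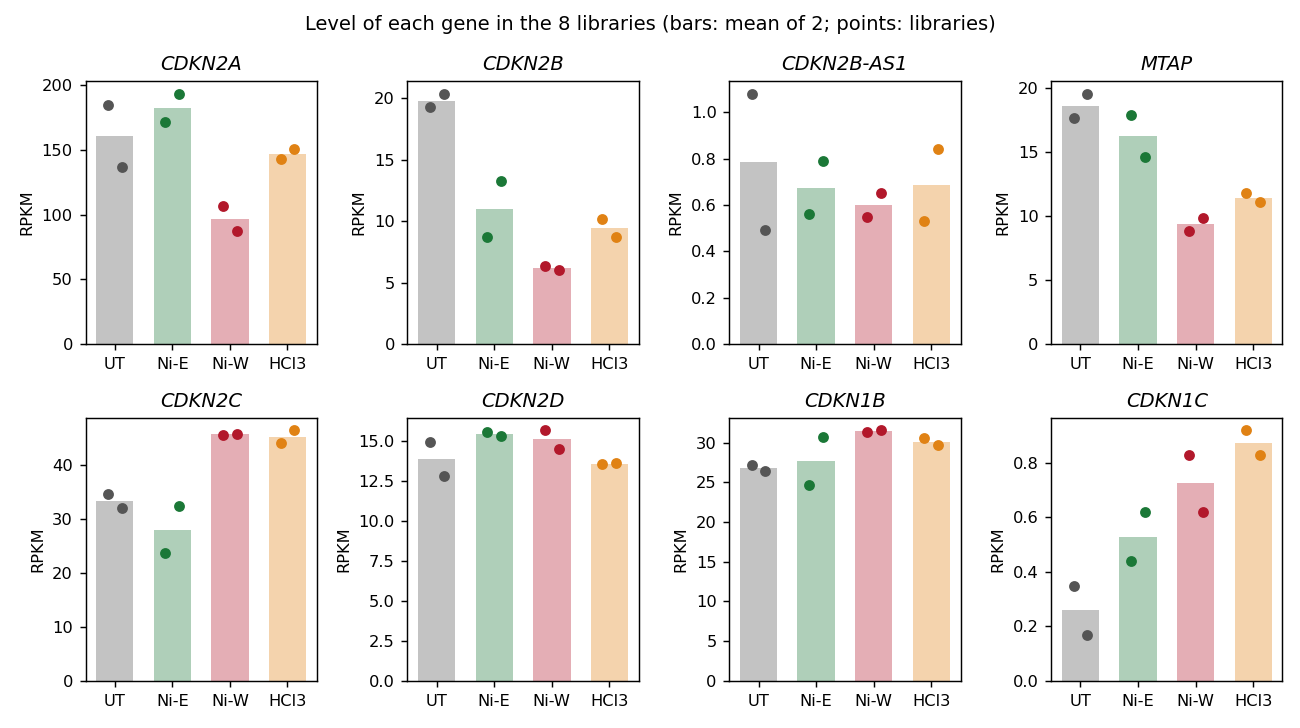
RPKM (vertical axis, from 0, on a scale of its own in each panel) of the 8 genes in UT, Ni-E, Ni-W and HCl3, with points for libraries and bars for the mean of 2. CDKN2B stood at 19.27 and 20.40 for UT and between 6.06 and 13.29 in the other 6 libraries, and CDKN2C was highest in Ni-W and HCl3.

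Tests were DESeq2 fits of each pair of groups across all genes, and a gene was called at an adjusted P value under 0.05 (Benjamini-Hochberg) with at least a 1.5-fold change. In Ni-E against UT, 1 of the 8 genes was called, lower, beside 5.8% of the 14478 genes tested (3.75% higher and 2.05% lower). In Ni-W against UT 4 were called, 3 lower and 1 higher, beside 15.7% of 15826 genes (10.9% higher and 4.83% lower), and in HCl3 against UT 3 were called, 2 lower and 1 higher, beside 14.8% of 15766 genes (11.1% higher and 3.74% lower). The median log2 fold change of the 8 genes was -0.09 for Ni-E, -0.12 for Ni-W and -0.12 for HCl3, against 0.00, 0.01 and 0.01 over all genes tested. These 3 comparisons share the UT libraries, so they are not independent of each other. With 2 libraries a group, the smallest 2-sided P value of an exact permutation test is 0.333, so the P values here depend on how DESeq2 borrows the spread of other genes. In bulk libraries fewer cells with a transcript and less RNA per cell cannot be told apart.

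CDKN2B was the locus gene that was lower in each nickel group. Its RPKM was 19.27 and 20.40 for UT, 8.72 and 13.29 for Ni-E, 6.38 and 6.06 for Ni-W and 10.23 and 8.69 for HCl3, from between 816 and 3157 reads. Both UT libraries lay above all others, and the Ni-W libraries lay below all others. CDKN2B fell 1.88-fold in Ni-E (log2 fold change -0.91 ± 0.17 SE, adjusted P value 3.43e-06 with DESeq2), 3.27-fold in Ni-W (-1.71 ± 0.12, 5.09e-44) and 2.18-fold in HCl3 (-1.12 ± 0.12, 7.39e-20). The Ni-E libraries were well apart, and the Ni-E call was not made by limma on log2(RPKM + 1) (-0.82 ± 0.18, adjusted P value 0.052). It was also not made by DESeq2 when UT replicate 1 (-0.95 ± 0.49, 0.252) or UT replicate 2 (-0.87 ± 0.49, 0.486) was left out, where the change was about as large and its error wider.

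CDKN2A, which encodes p16 and ARF, had a different course. It stood at 184.49 and 136.72 RPKM for UT, 171.98 and 193.64 for Ni-E, 106.58 and 87.08 for Ni-W and 142.80 and 150.98 for HCl3. The Ni-W libraries lay below all others, while the Ni-E and HCl3 libraries overlapped the wide range of UT. CDKN2A fell 1.7-fold in Ni-W (-0.77 ± 0.14, adjusted P value 1.64e-06 with DESeq2), with values of 0.13 ± 0.14 for Ni-E (0.642) and -0.18 ± 0.13 for HCl3 (0.284). Without UT replicate 1, the higher of the UT libraries, the Ni-W value was -0.54 (adjusted P value 0.00309), below 1.5-fold. Its transcript has 58.3% GC, above 80.7% of expressed genes, and after correction of each library for its trends with GC content and length it was -0.85 ± 0.09 for Ni-W (5.92e-21) and -0.35 ± 0.07 for HCl3 (8.66e-07, under 1.5-fold).

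MTAP was lower in Ni-W and HCl3. It stood at 17.68 and 19.60 RPKM for UT, 17.91 and 14.67 for Ni-E, 8.87 and 9.89 for Ni-W and 11.79 and 11.10 for HCl3. All 4 Ni-W and HCl3 libraries lay below the UT and Ni-E libraries, which overlapped. MTAP fell 2.04-fold in Ni-W (-1.03 ± 0.12, adjusted P value 9.06e-16 with DESeq2) and 1.69-fold in HCl3 (-0.76 ± 0.11, 4.25e-11), with a value of -0.25 ± 0.14 for Ni-E (0.258).

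CDKN2B-AS1 was measured with few reads, 24 to 85 a library, and its UT libraries, at 1.08 and 0.49 RPKM, spanned the range of the other 6 (0.53 to 0.84). Its log2 fold changes were -0.16 ± 0.52 for Ni-E, -0.34 ± 0.51 for Ni-W and -0.46 ± 0.51 for HCl3 (adjusted P values 0.903, 0.688 and 0.558 with DESeq2). The 95% intervals ran from -1.34 to 0.67 for Ni-W and from -1.46 to 0.55 for HCl3. Both held no change as well as the value of MTAP (-1.03 for Ni-W and -0.76 for HCl3), so these libraries could not tell them apart. Their width holds the spread between libraries, with 85 and 24 reads for UT, as well as the error of low counts.

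**Figure D2:**
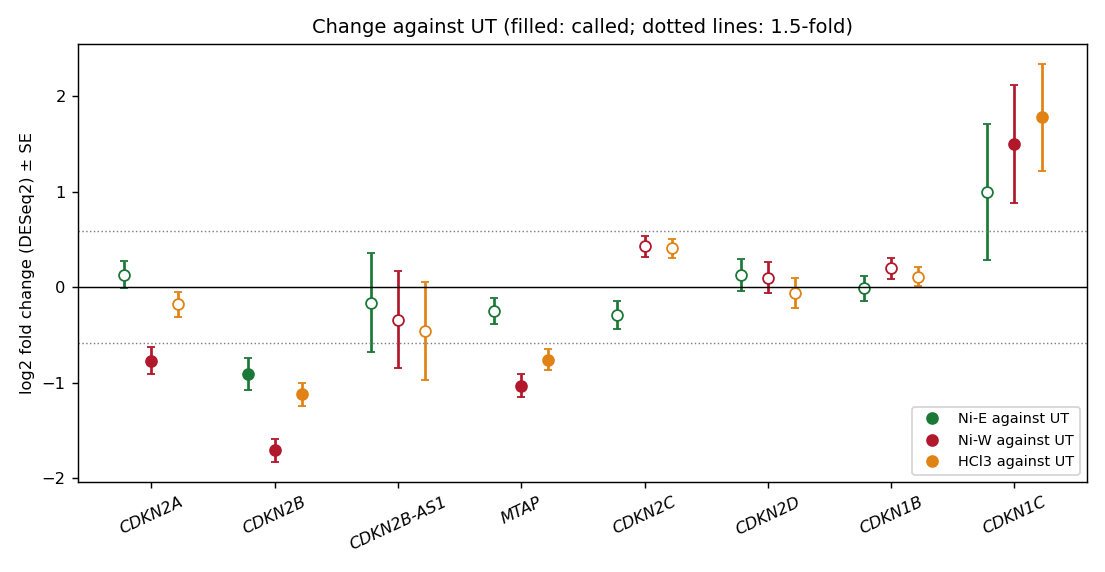
Log2 fold change against UT (vertical axis, DESeq2, bars ± SE) of the 8 genes in Ni-E, Ni-W and HCl3, with filled points for calls and dotted lines at 1.5-fold. CDKN2B was called lower in all 3 groups (-0.91, -1.71 and -1.12), and CDKN1C had the widest errors among the calls.

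The locus genes were then set against their neighbours, the 18 of 50 genes listed within 5 Mb on each side that had a mean normalised count of at least 50. These neighbours had a median log2 fold change of 0.00 for Ni-E, with 2 called higher and 2 lower. In Ni-W their median was -0.62, with 10 called lower and 1 higher, and 15 of 18 were below 0, against 49.1% of all genes tested. In HCl3 their median was -0.32, with 3 called lower and 2 higher, and 12 of 18 were below 0. Neighbouring genes are not replicates, so these values are given without a test. Over the 6 neighbours within 2 Mb the median was -0.10 for Ni-W and -0.11 for HCl3, and over the 27 within 10 Mb it was -0.62 and -0.40.

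Individual neighbours did not move alike. The 4 nearest below the locus are MIR31HG (0.24 Mb away), KLHL9 (0.47 Mb), PTPLAD2 (0.77 Mb) and FOCAD (0.81 Mb), and the 4 nearest above it are ELAVL2 (1.57 Mb), TUSC1 (3.56 Mb), CAAP1 (4.72 Mb) and PLAA (4.78 Mb). In Ni-W against UT, KLHL9 (-0.63 ± 0.12), FOCAD (-0.62 ± 0.11), CAAP1 (-0.65 ± 0.13) and PLAA (-0.64 ± 0.12) were called lower, all at nearly the same value. TUSC1 stood at -0.43 ± 0.17, PTPLAD2 at 0.32 ± 0.22 and MIR31HG at 0.64 ± 0.30 without a call. ELAVL2, which encodes a neuronal RNA-binding protein, rose the most in Ni-W (3.01 ± 0.22, adjusted P value 2.21e-40 with DESeq2) and in HCl3 (2.04 ± 0.24, 9.36e-16). ADAMTSL1 fell the most in Ni-W (-1.53 ± 0.12), and RPS6, a protein of the small ribosomal subunit, fell the most in HCl3 (-0.81 ± 0.10). In HCl3, KLHL9, FOCAD, CAAP1 and PLAA stood at -0.41, -0.46, -0.48 and -0.42, each under 1.5-fold.

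**Figure D3:**
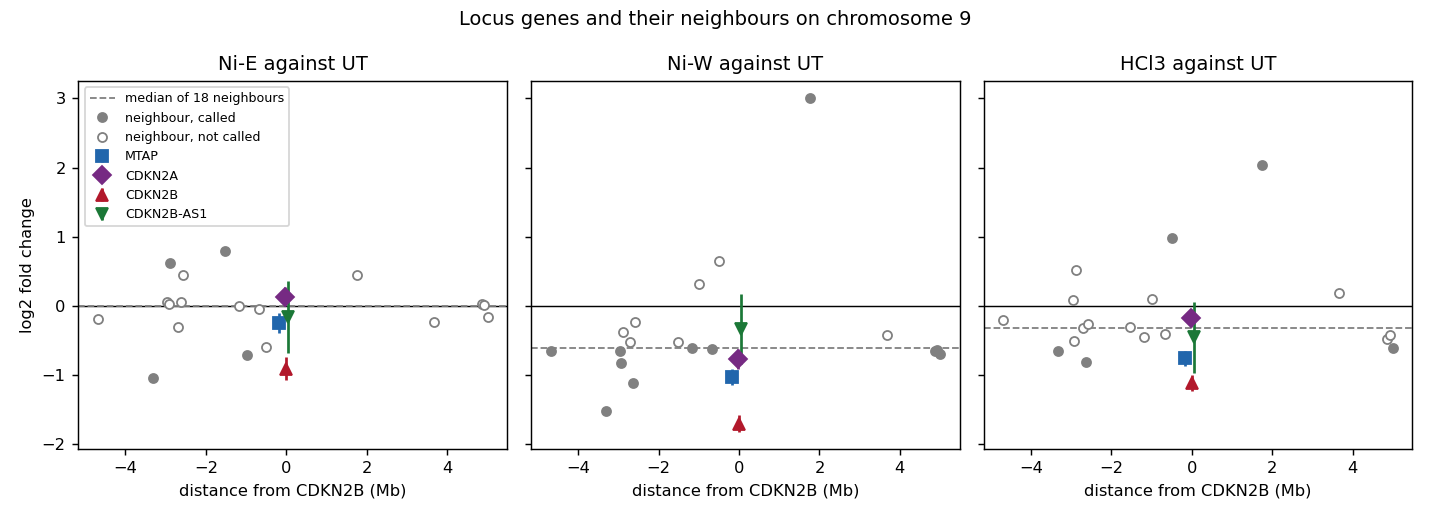
Log2 fold change against UT (vertical axis) of the 4 locus genes (coloured, ± SE) and their 18 neighbours (grey, filled where called) by distance from CDKN2B in Mb (horizontal axis), with the median of the neighbours dashed. The dashed line lies at 0.00 for Ni-E, -0.62 for Ni-W and -0.32 for HCl3, and CDKN2B lies below all neighbours in Ni-W and HCl3.

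CDKN2B lay lower than its surroundings in each group. All 18 neighbours had a higher log2 fold change than CDKN2B in Ni-W and in HCl3, and in Ni-E 1 neighbour, ADAMTSL1 (-1.04), was lower. Its distance from the neighbours' median was -0.91 for Ni-E, -1.09 for Ni-W and -0.81 for HCl3. The log2 ratio of CDKN2B to the geometric mean of the neighbours was 1.37 and 1.34 for UT, 0.14 and 0.80 for Ni-E, 0.01 and -0.03 for Ni-W and 0.40 and 0.23 for HCl3, so both UT libraries lay above all others. With size factors taken from the 18 neighbours alone, an alternative chosen after the data were seen, CDKN2B fell by 0.88 on the log2 scale in Ni-E (SE 0.19, adjusted P value 0.000233 with DESeq2), by 1.10 for Ni-W (SE 0.13, 7.85e-16) and by 0.79 for HCl3 (SE 0.14, 1.98e-07). The error of the scaling itself is not in these values.

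MTAP and CDKN2A were set against the neighbours in the same way, which shifts all genes of a comparison by nearly the same amount. MTAP had a log2 ratio to the neighbours of 1.59 and 1.63 for UT, 1.53 and 1.28 for Ni-E, 0.83 and 1.02 for Ni-W and 0.95 and 0.93 for HCl3. Scaled to the neighbours, MTAP was at -0.41 ± 0.13 for Ni-W (adjusted P value 0.00305 with DESeq2) and -0.42 ± 0.13 for HCl3 (0.00421), both under 1.5-fold. CDKN2A had ratios of 2.93 and 2.38 for UT, 2.75 and 2.96 for Ni-E, 2.37 and 2.10 for Ni-W and 2.50 and 2.64 for HCl3. Scaled in this way CDKN2A was at -0.17 ± 0.17 for Ni-W (0.411). With the medians of the 6 neighbours within 2 Mb (-0.10 for Ni-W and -0.11 for HCl3) this shift would be smaller. In Ni-W no gene lay near that median, with KLHL9 at -0.63, FOCAD at -0.62 and MLLT3 at -0.52. On its other side were PTPLAD2 at 0.32, MIR31HG at 0.64 and ELAVL2 at 3.01. CDKN2B-AS1 had ratios between -5.24 and -3.83 for UT and between -4.93 and -4.27 elsewhere. DNA copy number of the region was not analysed here, and its part in the lower levels of the locus genes and of their neighbours was not tested.

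**Figure D4:**
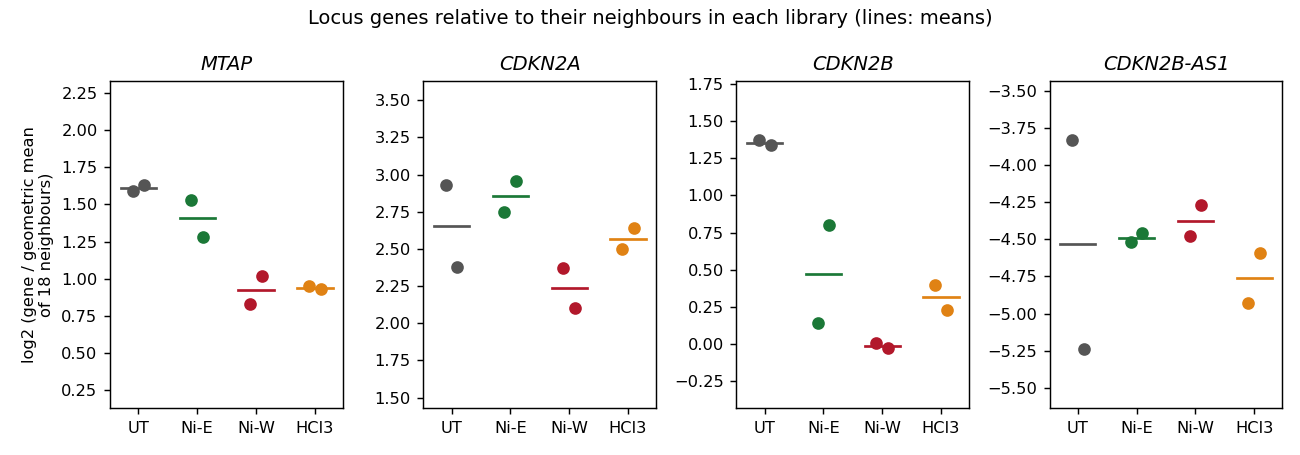
Log2 ratio of each locus gene to the geometric mean of its 18 neighbours in each library (vertical axes of equal span), with points for libraries and lines for the mean of 2. CDKN2B falls from 1.37 and 1.34 for UT to 0.01 and -0.03 for Ni-W, while the CDKN2A libraries of UT (2.93 and 2.38) overlap those of Ni-E (2.75 and 2.96) and HCl3 (2.50 and 2.64).

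Of the other INK4 genes, CDKN2C reached its highest levels in Ni-W and HCl3, and CDKN2D was not called in any comparison with UT. CDKN2C (chromosome 1, 51435642 to 51440309), which encodes p18, stood at 34.53 and 32.00 RPKM for UT, 23.69 and 32.29 for Ni-E, 45.59 and 45.66 for Ni-W and 44.06 and 46.38 for HCl3. The 4 Ni-W and HCl3 libraries lay above the UT and Ni-E libraries. Against UT the log2 fold change was 0.43 ± 0.11 for Ni-W (adjusted P value 0.000556 with DESeq2) and 0.41 ± 0.10 for HCl3 (0.000508), both under 1.5-fold and so not called, and -0.29 ± 0.15 for Ni-E (0.199). With GC and length trends removed (transcript GC 58.1%) the values were 0.23 ± 0.09 for Ni-W (0.0196), 0.09 ± 0.08 for HCl3 (0.328) and -0.51 ± 0.13 for Ni-E (0.00109). CDKN2D (chromosome 19, 10677138 to 10679655), which encodes p19, ranged from 12.83 to 15.68 RPKM over the 8 libraries, and its log2 fold changes were 0.13 ± 0.17 for Ni-E, 0.10 ± 0.16 for Ni-W and -0.06 ± 0.16 for HCl3 (adjusted P values 0.727, 0.711 and 0.83).

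Of the CIP/KIP genes, CDKN1B held place 3 of the 8 genes by level in each group, and CDKN1C held place 7 or 8. CDKN1B (chromosome 12, 12870204 to 12875316), which encodes p27, ranged from 24.64 to 31.56 RPKM, with log2 fold changes of -0.01 ± 0.13 for Ni-E, 0.20 ± 0.11 for Ni-W and 0.11 ± 0.10 for HCl3 (adjusted P values 0.977, 0.171 and 0.434 with DESeq2). CDKN1C (chromosome 11, 2904448 to 2906995), the imprinted gene of p57, stood at 0.35 and 0.17 RPKM for UT, 0.44 and 0.62 for Ni-E, 0.83 and 0.62 for Ni-W and 0.92 and 0.83 for HCl3, from 24 and 8, 28 and 40, 74 and 36, and 66 and 63 reads. Both UT libraries were the lowest of the 8. CDKN1C rose 2.83-fold in Ni-W (1.5 ± 0.62, 0.0483) and 3.44-fold in HCl3 (1.78 ± 0.56, 0.00694), with 1.00 ± 0.71 for Ni-E (0.432). The Ni-W call was lost without any 1 of its 4 libraries (adjusted P values 0.0747 without UT replicate 1, 0.337 without UT replicate 2, 0.577 without Ni-W replicate 1 and 0.268 without Ni-W replicate 2). The HCl3 call was lost without UT replicate 2 (0.121), HCl3 replicate 1 (0.296) or HCl3 replicate 2 (0.244).

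CDKN1A, the remaining CIP/KIP gene and a p53 target, is given for reference. It stood at 25.94 and 22.85 RPKM for UT, 189.28 and 123.08 for Ni-E, 55.77 and 48.71 for Ni-W and 62.78 and 63.00 for HCl3. It rose 6.18-fold in Ni-E (2.63 ± 0.33, adjusted P value 1.02e-12 with DESeq2), 2.09-fold in Ni-W (1.06 ± 0.12, 1.19e-16) and 2.48-fold in HCl3 (1.31 ± 0.10, 6.97e-34). In Ni-E, 1 CDKN1A library (189.28) lay in the range of CDKN2A in RPKM (171.98 and 193.64) and the other (123.08) lay below it. CDKN2B was lower in Ni-E than in UT.

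Direct comparisons of the nickel groups asked how the inhibitors differed after removal of nickel from the exposed state. In Ni-W against Ni-E 4 of the 8 genes were called, 3 lower and 1 higher, beside 20.5% of 15989 genes (11.7% higher and 8.81% lower). CDKN2A was lower by 1.89-fold in Ni-W (-0.92 ± 0.11, adjusted P value 6.32e-15 with DESeq2), CDKN2B 1.76-fold lower (-0.82 ± 0.17, 5.85e-06) and MTAP 1.73-fold lower (-0.79 ± 0.13, 1.07e-08), while CDKN2C was 1.64-fold higher (0.71 ± 0.13, 2.44e-07). Without Ni-E replicate 2 the CDKN2B value was -0.52, and without Ni-E replicate 1 the CDKN2C value was 0.53, both under 1.5-fold. The neighbours had a median of -0.61 here, and scaled to them the locus genes were at -0.32 ± 0.12 for CDKN2A, -0.23 ± 0.18 for CDKN2B and -0.20 ± 0.12 for MTAP, none of them called. Over the 6 neighbours within 2 Mb the median was 0.22.

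In HCl3 against Ni-E 1 of the 8 genes was called, beside 17.1% of 15953 genes (10.4% higher and 6.78% lower). CDKN2C was 1.61-fold higher in HCl3 (0.69 ± 0.12, adjusted P value 8.95e-08 with DESeq2), and without Ni-E replicate 1 it was at 0.51, under 1.5-fold. CDKN2A (-0.33 ± 0.08, 0.000322) and MTAP (-0.52 ± 0.12, 3.64e-05) were under 1.5-fold, and CDKN2B was at -0.23 ± 0.16 (0.263, 95% interval -0.54 to 0.08). Without Ni-E replicate 2, MTAP was called lower (-0.69).

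HCl3 and Ni-W carried the same treatment text, and 2 of the 8 genes were called between them, both higher in HCl3, beside 4.77% of 14956 genes (3.1% higher and 1.66% lower). CDKN2A was 1.5-fold higher in HCl3 (0.59 ± 0.10, adjusted P value 5.34e-08 with DESeq2) and CDKN2B 1.51-fold higher (0.59 ± 0.12, 1.28e-05), and in both genes the 2 HCl3 libraries lay above the 2 Ni-W libraries. Both stood at the fold threshold. CDKN2A was at 0.58 with edgeR, 0.45 without Ni-W replicate 2 and 0.54 without HCl3 replicate 2, and CDKN2B at 0.56 without Ni-W replicate 2 and 0.47 without HCl3 replicate 1, all below it. The neighbours had a median of 0.22, and scaled to them both genes were at 0.32. MTAP (0.27 ± 0.10, 0.0361) was under 1.5-fold and CDKN2C was at -0.02 ± 0.08, with a 95% interval from -0.18 to 0.14.

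The genes on which the inhibitors act were counted in lists by function, here against UT. For all lists, the shares called over all genes tested were 5.8% for Ni-E, 15.7% for Ni-W and 14.8% for HCl3. The median log2 fold changes over all genes tested were 0.00, 0.01 and 0.01. Of 8 genes of cyclin D, CDK4, CDK6 and the retinoblastoma family, 7 passed the filter on low counts. In Ni-E CDK6 fell (-0.70 ± 0.13, adjusted P value 2.32e-06 with DESeq2), and in HCl3 CCND1, cyclin D1, rose (0.73 ± 0.14, 8.47e-07). In Ni-E CCND1 was at 42.01 and 16.18 RPKM, against 9.78 and 13.25 for UT, so that the Ni-E libraries were far apart. Its log2 fold change of 1.29 ± 0.69 was not called by DESeq2 (adjusted P value 0.242), whereas edgeR called it higher (0.0329). In Ni-W no gene of the list was called with DESeq2 or edgeR, and 2 had an unadjusted P value under 0.05. They were CDK6 (-0.58 ± 0.12, adjusted P value 1.27e-05 with DESeq2) and RB1 (0.55 ± 0.13, 0.000346), both under 1.5-fold. RB1 was also under 1.5-fold in HCl3 (0.54 ± 0.11, 8.36e-06). In the order Ni-E, Ni-W, HCl3 the list's median was 0.00, -0.06 and -0.06.

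Among 10 E2F factors and partners 1 was called in each group, and it was E2F5, an E2F that is usually classed as a repressor, from 0.42 and 0.31 RPKM for UT to 2.72 and 2.84 for Ni-E, 2.35 and 2.60 for Ni-W and 2.14 and 1.82 for HCl3. Its log2 fold change was 2.99 ± 0.39 for Ni-E, 2.84 ± 0.39 for Ni-W and 2.50 ± 0.41 for HCl3, and the list's median was 0.06, 0.18 and 0.08. Of 12 E2F target genes of DNA replication, PCNA, the sliding clamp of the replication fork, was called lower in Ni-W (-0.68 ± 0.10) and stood at -0.56 ± 0.09 for HCl3, under 1.5-fold. No target was called in Ni-E or HCl3 with DESeq2 or edgeR, with 2 and 7 genes at an unadjusted P value under 0.05. In HCl3, 5 targets were lower and 1 was higher at an adjusted P value under 0.05 with DESeq2, all under 1.5-fold. The list's median was -0.03, -0.19 and -0.18. Of 5 genes of cyclin E, cyclin A and CDK2, CDC25A, a phosphatase that activates CDK2, was called lower in HCl3 (-0.78 ± 0.11). In Ni-E and Ni-W none of these 5 was called with DESeq2 or edgeR, with 1 at an unadjusted P value under 0.05 in each. In Ni-W it was CDC25A (-0.42 ± 0.13, adjusted P value 0.00427 with DESeq2), under 1.5-fold. The list's median was 0.03, -0.08 and -0.12. Of 5 genes of p27 turnover, SKP2, which marks p27 for degradation, was called higher in Ni-W (0.67 ± 0.11), where CDKN1B itself was not called. In Ni-E and HCl3 none of these was called with DESeq2 or edgeR, with 2 and 1 at an unadjusted P value under 0.05, and the median was -0.02, 0.08 and 0.04.

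Downstream of ARF, 3 of 4 genes of the MDM2 and p53 list were called in Ni-E, and CDKN1A alone of them was called in Ni-W and in HCl3. In Ni-E, MDM2, the ubiquitin ligase of p53, rose (0.62 ± 0.14, adjusted P value 0.00028 with DESeq2) and MDM4, its partner, fell (-0.93 ± 0.23, 0.00165), beside CDKN1A. The list's median was 0.41, -0.04 and -0.20 in the same order. Among 16 factors known to act on the INK4 locus, 1 was called lower in Ni-E, 2 higher and 1 lower in Ni-W, and 3 higher and 1 lower in HCl3, with medians of -0.09, 0.13 and 0.04. The counts of this list in Ni-E and Ni-W were near the shares over all genes. MYC, a repressor of CDKN2B through ZBTB17, fell in Ni-W (-1.21 ± 0.11) and HCl3 (-0.81 ± 0.10). SMAD3, which carries TGF-beta signals to CDKN2B, fell in Ni-E (-0.71 ± 0.11) and rose in Ni-W (0.75 ± 0.10) and HCl3 (0.92 ± 0.09). ID1, a repressor of CDKN2A, rose in Ni-W (0.73 ± 0.15) and HCl3 (0.72 ± 0.15), and TGFB1 rose in HCl3 (0.63 ± 0.10).

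Around MTAP, 5 of 9 genes of methionine salvage and polyamine synthesis were called lower in Ni-W and 3 were in HCl3. In Ni-E none was called with DESeq2 or edgeR, and 2 had an unadjusted P value under 0.05. Of these, MAT2A was at -0.47 ± 0.11 in Ni-E (adjusted P value 0.000603 with DESeq2), under 1.5-fold. Over all genes tested, 4.83% were called lower in Ni-W and 3.74% in HCl3. The list's median was -0.10 for Ni-E, -0.60 for Ni-W and -0.45 for HCl3. APIP, of the salvage pathway, stood at -0.77 ± 0.16 for Ni-W and -0.63 ± 0.15 for HCl3. AMD1 (-0.65 ± 0.12 and -0.70 ± 0.11) and ODC1 (-0.60 ± 0.12 and -0.75 ± 0.10), enzymes that set the rate of polyamine synthesis, were called lower in both groups. The spermidine synthase SRM (-0.80 ± 0.12) and MRI1 (-0.62 ± 0.15, named after its value was seen) were called lower in Ni-W, and in HCl3 they stood at -0.52 ± 0.09 and -0.35 ± 0.14.

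A list of 10 genes was taken from the wider imprinted region of chromosome 11 that holds CDKN1C, with H19 and IGF2 among them. Of these, 9 were tested in Ni-E with 2 called higher. All 10 were tested in Ni-W and HCl3, with 3 called higher in each. The list's median was 0.17, 0.15 and 0.27. H19, a noncoding RNA made from the maternal copy, stood at 0.52 and 0.39 RPKM for UT, 7.26 and 6.43 for Ni-E, 2.30 and 1.58 for Ni-W and 9.06 and 10.26 for HCl3, and was called higher in all 3 groups (3.84 ± 0.27, 2.05 ± 0.36 and 4.34 ± 0.24). IGF2, made from the paternal copy, stood at 0.04 and 0.05 RPKM for UT and at 0.67 and 0.78 for Ni-W and 0.52 and 0.74 for HCl3, where it was called higher. SLC22A18 rose in Ni-W (1.59 ± 0.24) and HCl3 (1.64 ± 0.22), and CARS in Ni-E (0.67 ± 0.11). Apart from H19 and IGF2, SLC22A18 and CARS were the only genes of the list called against UT. Most genes of the list were not called in any 1 group, so the counts do not show a rise shared by all the genes around CDKN1C.

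**Figure D5:**
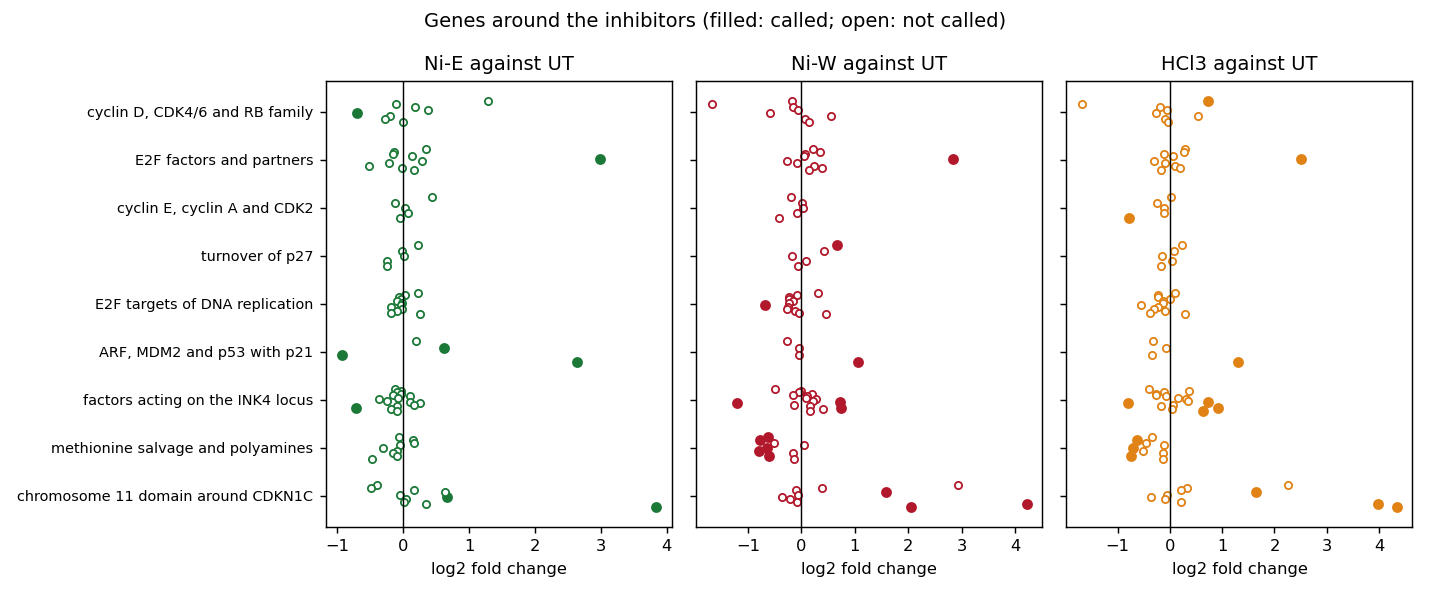
Log2 fold change against UT (horizontal axis) of each gene of the 9 lists around the inhibitors (vertical axis) in Ni-E, Ni-W and HCl3, filled where called. E2F5, at 2.99, 2.84 and 2.50, stands apart from the other E2F genes, and the called genes of methionine salvage and polyamine synthesis all lie below 0.

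Over the 8 libraries, the genes whose normalised counts ran most like those of CDKN2B were KIF24, CHD7 and TRMT10B, with Pearson's r of 0.984, 0.977 and 0.968, and those most like CDKN2A were C1orf122, CCDC97 and TELO2 with 0.989, 0.982 and 0.976. KIF24 (34252378 to 34329198) and TRMT10B (37753800 to 37778969) also lie on chromosome 9. KIF24 stood at 5.30 and 5.55 RPKM for UT, 4.13 and 5.18 for Ni-E, 3.46 and 3.52 for Ni-W and 4.31 and 4.21 for HCl3, a narrower range than CDKN2B. C1orf122, CCDC97 and TELO2 have transcripts of 64.2, 59.9 and 66.3% GC and, like CDKN2A, were lower in the second UT library than in the first. The libraries shared by these coefficients fall into 4 groups, so the values are a description.

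Reads counted over the listed genes numbered between 26383920 and 45692298 a library, and 3 reads amounted to between 6.57e-06 and 1.14e-05% of them. The keratins KRT8 (192.19 to 310.30 RPKM) and KRT18 (144.46 to 245.18) were high in each library, while other epithelial markers were low, with EPCAM at 0.95 to 1.79, KRT19 at up to 0.78, CDH1 at up to 0.11 and KRT5 at up to 0.03 RPKM. Of the markers of other cell types, PTPRC was at up to 0.04, CD3E at 0 and CD68 at 14.33 to 21.80 RPKM, and PECAM1, CDH5 and VWF were at up to 0.10. COL1A1 was at 177.60 to 454.16 and COL1A2 at 0.03 to 2.05, with PDGFRA at up to 0.02 and DCN at 0. Some markers moved with the groups. Against UT, KRT18 was called higher in HCl3 (0.64 ± 0.09), and KRT19, at 0 to 0.02 RPKM for UT and Ni-E, was called higher in Ni-W (6.05 ± 1.55) and HCl3 (6.18 ± 1.52). COL1A1 was called lower in Ni-W (-0.69 ± 0.11), and COL1A2 was called lower in Ni-E (-2.69 ± 0.73) and higher in HCl3 (3.21 ± 0.27), where it stood at 2.05 and 2.01 RPKM. VWF was called higher in Ni-W (2.01 ± 0.82). No leukocyte marker was called by DESeq2 or edgeR, with 0, 1 and 1 at an unadjusted P value under 0.05 in Ni-E, Ni-W and HCl3. CD68 stood at -0.46 ± 0.13 for Ni-W and -0.41 ± 0.12 for HCl3 (adjusted P values 0.00256 and 0.00394 with DESeq2), under 1.5-fold. The part of these markers in the values of the inhibitors was not tested. The epithelial markers thus did not all match the label. KRT8 and KRT18 were high, EPCAM was low, and KRT19, CDH1 and KRT5 were at or near 0. COL1A1, listed for fibroblasts, overlapped KRT8 and KRT18 in RPKM.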

How the data were processed

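RNA-Seq gave 8 libraries of BEAS-2B cells, which were grouped by their labels into UT, Ni-E, Ni-W and HCl3, with replicates from the suffix given to the repeat library. The study's methods call them 2 biological replicates, and since neither they nor the labels say that these were separate cultures, P values measure the spread between these libraries. The authors mapped reads with STAR 2.4 to hg19, discarded those with multiple hits and deposited read counts per RefSeq gene from BioWardrobe, together with RPKM values that they rounded to 2 decimals. Each library was deposited without pooling and lists 25411 genes.

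Counts were fitted for each pair of groups with DESeq2 1.42.0 in R 4.3.3 (two-sided Wald test with median-of-ratios scaling, Benjamini-Hochberg adjusted over all genes left by its independent filtering), and calls needed an adjusted P value under 0.05 and 1.5-fold, the thresholds of the study's methods. Alternatives used edgeR 4.0.16, limma 3.58.1 on log2(RPKM + 1) or log2(RPKM + 0.1), which understates changes of low genes, TMM factors, a minimum mean count of 10, all 8 libraries in 1 fit, a replicate block, removal of GC and length trends (GC content for 99.1% of 12015 expressed genes), and each library left out. Neighbours were genes of chromosome 9 within 5 Mb of the 4 locus genes with a mean normalised count of at least 50. Added after the data were seen were the scaling to the neighbours and the crossed replicate block. Intervals are 95% Wald intervals of the fits, and the floor of 3 reads covers counting error only, since reads carried no molecular identifiers. Scripts were tested on simulated data.

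The members, the gene lists and the tests were chosen with earlier results of these data known. Named genes are the 8 members, CDKN1A, the 4 nearest neighbours on each side and those with the largest changes in Ni-W and HCl3 against UT, up to 4 called genes of each list by size of change, and the 3 genes most like CDKN2B and CDKN2A by Pearson's r of log2(normalised count + 1). RB1 and MAT2A, not called against UT, were named after their values were seen. Promoters came from RefSeq (GRCh38.p14). Plots used matplotlib 3.10.9 under Python 3.11.15.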

Additional observations from a re-analysis of the deposited data

Results flagged for a closer look

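Effects against UT that differed between groups were read from direct comparisons of the nickel groups with DESeq2, and 7 of them passed an adjusted P value of 0.05 and 1.5-fold. Between Ni-W and Ni-E, CDKN2A (log2 difference -0.92), CDKN2B (-0.82) and MTAP (-0.79) were lower in Ni-W and CDKN2C (0.71) was higher. Between HCl3 and Ni-E, CDKN2C was higher in HCl3 (0.69). Between HCl3 and Ni-W, CDKN2A (0.59) and CDKN2B (0.59) were higher in HCl3, at the fold threshold. In each of these 7 the 2 libraries of a group lay on 1 side of the 2 libraries of the other. No group had enough libraries for a search for outlying samples.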

How the results depend on the processing

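Of the values of the 8 genes under an alternative, 675 kept their direction and their side of the threshold, 48 kept their direction and lost a call, 9 gained one, and 36 changed sign, 14 of them when 1 library was left out. None of these 36 was called before or after. When 1 library was left out, the remaining library of its group was assumed to vary like the others.

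With limma on log2(RPKM + 1), calls numbered 466 for Ni-E, 1531 for Ni-W and 1413 for HCl3 against UT, 2131 in Ni-W and 1750 in HCl3 against Ni-E, and 360 in HCl3 against Ni-W. Without the filter on low RPKM they numbered 0 (3988 genes at an unadjusted P value under 0.05, and 1044 calls with edgeR), 1409, 1305, 1989, 1655 and 247. With no fold threshold DESeq2 called 1679, 4918, 4945, 6274, 5994 and 2476 genes. Leaving out 1 library gave 356 to 620 calls in Ni-E, 1516 to 2190 in Ni-W and 1339 to 2109 in HCl3 against UT, 1757 to 2742 in HCl3 against Ni-E and 327 to 530 in HCl3 against Ni-W, the lowest without Ni-E replicate 1, Ni-W replicate 1, HCl3 replicate 2, HCl3 replicate 1 and HCl3 replicate 2.

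Replicate numbers come from a repeat suffix and nothing ties same-numbered libraries, whose deviations had an r between -0.159 and 0.222 across genes. With the replicate block, calls numbered 491 in Ni-E against UT and 455 in HCl3 against Ni-W (398 and 440 with GC and length trends also removed), and CDKN1C was not called in Ni-W (1.58, or 1.39 with the trends removed) or HCl3 (1.88, or 1.49). With the block and the trends removed, CDKN2A in HCl3 against Ni-W was 0.49 and MTAP in HCl3 against Ni-E -0.68. The crossed replicate block, tried where r was under -0.1, gave 632 calls in Ni-E against UT, and CDKN1C in HCl3 (1.87) was not called. The block ended no other call among the 8 genes.

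CDKN1C was not called by limma with a pseudocount of 1 in Ni-W (0.45) or HCl3 (0.58), with or without the filter, nor in Ni-W with the trends removed (1.33), and edgeR called it in HCl3 against Ni-E (0.77). CDKN2B in Ni-E was not called by limma (-0.82 with a pseudocount of 1, with or without the filter, and -0.87 with 0.1). Limma without the filter also called neither CDKN2A in Ni-W against UT (-0.72) and HCl3 against Ni-W (0.60), nor CDKN2B in Ni-W against Ni-E (-0.71), nor CDKN2C in HCl3 against Ni-E (0.69), and neither fit with a pseudocount of 1 called CDKN2B in HCl3 against Ni-W (0.53), which the fit with 0.1 did call (0.59). CDKN2A in HCl3 against Ni-W was under 1.5-fold with edgeR (0.58), all 8 libraries in 1 fit (0.58) and trends removed (0.49), and MTAP in HCl3 against Ni-E passed it with trends removed (-0.69). With no fold threshold, CDKN2A (-0.33) and MTAP (-0.52) in HCl3 against Ni-E, CDKN2C in Ni-W (0.43) and HCl3 (0.41) against UT and MTAP in HCl3 against Ni-W (0.27) were called.

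Scaled to the neighbours, calls were lost for CDKN2A in Ni-W against UT (-0.17), Ni-W against Ni-E (-0.32) and HCl3 against Ni-W (0.32), for CDKN2B in Ni-W against Ni-E (-0.23) and HCl3 against Ni-W (0.32), and for MTAP in Ni-W (-0.41) and HCl3 (-0.42) against UT and Ni-W against Ni-E (-0.20). By construction such a value leaves out what the locus shares with its neighbours. Leaving out 1 library gave 1.09 to 2.15 for CDKN1C in Ni-W and 1.38 to 2.44 in HCl3 against UT, -0.97 to -0.54 for CDKN2A in Ni-W and -1.22 to -0.65 for CDKN2B in Ni-E against UT, -1.08 to -0.52 for CDKN2B and 0.53 to 0.91 for CDKN2C in Ni-W against Ni-E, 0.51 to 0.90 for CDKN2C and -0.69 to -0.35 for MTAP in HCl3 against Ni-E, and 0.45 to 0.73 for CDKN2A and 0.47 to 0.70 for CDKN2B in HCl3 against Ni-W.

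Sign changes among uncalled values were, with limma, 0.04 for CDKN1B in Ni-E against UT, 0.01 for CDKN2B-AS1 in HCl3 against Ni-E (each in all 3 limma fits), and 0.07 (pseudocount of 1, with or without the filter) and 0.14 (0.1) for CDKN2B-AS1 in HCl3 against Ni-W. With trends removed they were, without and with the replicate block, -0.05 and -0.04 for CDKN2A and -0.10 in both fits for CDKN2D in Ni-E against UT, 0.00 in both for CDKN2D in Ni-W against UT and 0.09 and 0.10 for CDKN2D in Ni-W against Ni-E, and with both the block and the trends removed 0.00 for CDKN2B-AS1 in Ni-E against UT. Scaled to the neighbours they were 0.25 and 0.40 for CDKN2B-AS1 in Ni-W against UT and against Ni-E, 0.14 for CDKN2A in HCl3 against UT and 0.05 for CDKN2B in HCl3 against Ni-E. Leaving out 1 library gave, for CDKN2A, -0.07 to 0.36 in Ni-E and -0.39 to 0.05 in HCl3 against UT, for CDKN2B-AS1 -0.65 to 0.64, -0.83 to 0.47 and -0.95 to 0.35 in Ni-E, Ni-W and HCl3 against UT and -0.27 to 0.02 in HCl3 against Ni-W, for CDKN1B -0.16 to 0.12 in Ni-E against UT and -0.02 to 0.25 in HCl3 against Ni-E, for CDKN2D -0.01 to 0.22 in Ni-W and -0.17 to 0.06 in HCl3 against UT and -0.10 to 0.01 in Ni-W against Ni-E, for CDKN2B -0.49 to 0.08 in HCl3 against Ni-E, and for CDKN2C -0.06 to 0.02 in HCl3 against Ni-W.

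The neighbours' median moved within 2 Mb to -0.10 in Ni-W and -0.11 in HCl3 against UT and to 0.22 in Ni-W and 0.21 in HCl3 against Ni-E, within 10 Mb to -0.12 in HCl3 against Ni-E, and with a minimum count of 10 to -0.54 in Ni-W and -0.03 in HCl3 against Ni-E. Leaving out 1 library gave -0.07 to 0.05 in Ni-E, -0.67 to -0.55 in Ni-W and -0.44 to -0.22 in HCl3 against UT, -0.67 to -0.58 in Ni-W and -0.38 to -0.24 in HCl3 against Ni-E, and 0.21 to 0.28 in HCl3 against Ni-W. Except where stated, the cause of a difference between settings was not tested. The few reads of CDKN2B-AS1 and CDKN1C, and for CDKN2B-AS1 the spread of its UT libraries, limit what can be shown for them.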
